A study of Rattus norvegicus with 12 samples.

Results

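Osteoblast cultures from the marrow of rats with a spinal cord injury (SCI) were compared with osteoblast cultures from sham-operated rats. The arrays entered by their sample titles: 4 of the 12 arrays in the series, which hold 2 of its 6 RNA pools. The comparison covers the 8271 genes that were detected out of 21577 genes on the array.

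The SCI group was male Wistar-Hannover rats whose spinal cord was transected. Per the labels, these animals also had the gastrocnemius ablated and underwent implant surgery in week 14 after the transection, with no stimulator unit put in, and were sampled in week 17. The sham group was male rats of the same strain that had the same spinal operation but kept an intact cord, with tissue taken 12 to 14 weeks after surgery. No implant surgery or gastrocnemius ablation is given for the sham group, so the effect of the cord injury cannot be told apart from that of the second operation or of the later sampling. Marrow cells of the tibia and femur were cultured, and the osteoblast cultures are labelled day 10. RNA of 3 to 4 animals a group was pooled and arrayed in duplicate, so each group is 1 pool on 2 technical arrays. A difference therefore has no test and no spread between animals. The array SE beside it covers array error only. A pool of RNA also cannot tell fewer cells of a type from less RNA per cell.

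Osteoblasts arise from marrow stromal progenitors. They multiply, lay down a collagen matrix and then mineralize it, and the last of these stages has its own genes, among them those for bone sialoprotein, osteocalcin and tissue-nonspecific alkaline phosphatase. Marrow plated for osteoblasts also carries along macrophages and other blood cells, and loss of loading and of nerve supply below a cord lesion is followed by rapid bone loss. Whether cultured marrow osteoblasts differ after such an injury is the question this comparison addresses.

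The detected genes spanned the whole signal range of the arrays, and 36.4% to 38.0% of probes were detected on each of the 4 arrays. Duplicates correlated across detected genes at 0.996 in the SCI pool and at 0.997 in the sham pool, which describes genes and not samples, and no detected gene differed by 2-fold or more between duplicates. The sham arrays were brighter at equal rank: the authors' series matrix multiplies the signals by 1.17 and 0.982 on the SCI arrays and by 0.761 and 0.731 on the sham arrays. Signals below are the deposited intensities, and differences are log2 SCI minus sham after quantile normalization, so the ratio of printed signals is not the normalized fold. The size rule asked for pool means at least 2-fold apart and for no overlap between the arrays of the pools. By it 167 genes were higher in SCI cultures, which is 2.02% of detected genes, and 116 genes were lower, which is 1.4%. The median difference over all detected genes was -0.02. Together 283 genes, or 3.42%, passed the rule. Among them 16 higher genes were detected on no sham array and 13 lower genes on no SCI array, so only a bound on their fold is given, and for 5 higher and 7 lower genes that bound was under 2-fold. Under scaling to a common median in place of quantile normalization, the median of all detected genes moved to -0.22 and the split became 95 higher and 213 lower. The 5 genes just inside the rule lay between 1.0 and 1.02 among the higher ones and between -1.01 and -1.0 among the lower ones. The 5 just outside lay at 0.99 on the high side and between -1.0 and -0.98 on the low side.

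**Figure D1:**
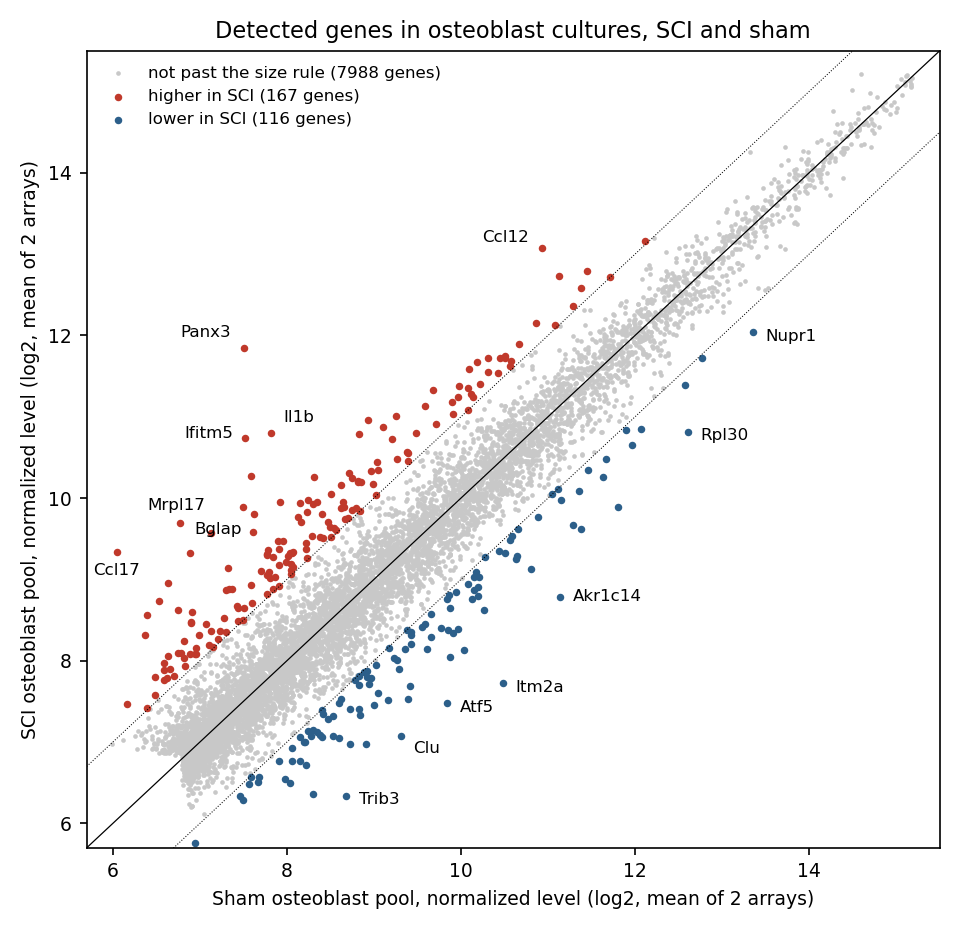
Each point is 1 of the 8271 detected genes, with the normalized log2 level of the SCI pool (vertical axis) against that of the sham pool (horizontal axis), each the mean of 2 arrays. Dotted lines mark 2-fold; the 167 genes higher in SCI (red) reach farthest from the diagonal at Panx3, and the 116 lower genes (blue) at Itm2a.

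Several genes of the mineralizing osteoblast were higher in SCI cultures. Of 18 detected osteoblast markers, 7 were higher in SCI cultures and 0 were lower, and their median difference was 0.88. Of the 15 detected on all 4 arrays 5 were higher, with a median of 0.81. A separate list of osteocyte and mineral handling genes shifted less. Of its 10 detected members 2 were higher, 0 were lower and 3 were negative, with a median of 0.20. Of the 8 detected on all 4 arrays 1 was higher, with a median of 0.17. Panx3, a channel protein of maturing osteoblasts, had the largest difference of any gene in the comparison. Its signal was 2949 and 3587 on the SCI arrays, against 153 and 137 on the sham arrays, a difference of 4.34 ± 0.07 (array SE). Ifitm5, a membrane protein of mineralizing osteoblasts also known as BRIL, had signals of 1368 and 1615 in SCI cultures and 149 and 149 in sham cultures, a difference of 3.21 ± 0.02. Neither gene's arrays overlapped between pools, and both sham signals were well within the detected range.

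The acidic phosphoproteins of bone matrix followed. Dmp1, which binds mineral and is later an osteocyte gene, gave 284 and 377 in SCI cultures, while its 9.97 and 23.4 in sham cultures were not detected. The gene was therefore at least 3.83-fold higher in the SCI pool. Ibsp (bone sialoprotein), which nucleates mineral, gave 746 and 949 in SCI cultures against 210 and 250 in sham cultures, a difference of 2.03 ± 0.08. Bglap, which encodes osteocalcin, gave 628 and 656 in SCI cultures against 198 and 131 in sham cultures, a difference of 1.98 ± 0.22. Spp1 (osteopontin) belongs to the same protein family as Ibsp and Dmp1 and did not share their shift. It gave 16138 and 17438 in SCI cultures against 17990 and 19598 in sham cultures, a difference of -0.02 ± 0.05.

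The enzymes and the hormone receptor of this stage were also on the high side. Alpl, the phosphatase that frees phosphate for mineral, gave 1985 and 2789 in SCI cultures and 1250 and 1478 in sham cultures, a difference of 1.18 ± 0.13. Alpl no longer passed the size rule under common-median scaling. Phospho1, a phosphatase of matrix vesicles, gave 165 and 204 in SCI cultures, against 27.5 and 22.6 in sham cultures where it was not detected. It was at least 2.41-fold higher in SCI. Pthr1, the older symbol the file gives for a parathyroid hormone receptor probe and not matched here to a current gene, gave 1935 and 2537 in SCI cultures against 936 and 946 in sham cultures (difference 1.65 ± 0.07). Mgp, an inhibitor of mineralization made by many matrix cells, gave 1424 and 1638 in SCI cultures and 430 and 564 in sham cultures, a difference of 1.96 ± 0.14.

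Earlier and broader genes of the lineage moved less. Dlx5, a homeobox regulator of the lineage, differed by 0.96, short of the size rule. Phex, a peptidase of phosphate control that was not detected in sham cultures, was at least 1.58-fold higher and did not pass either. The chains of type I collagen differed by 0.21 (Col1a1) and 0.10 (Col1a2), and Sparc, another abundant bone matrix protein, by 0.26. Runx2 and Sp7, the transcription factors that define the lineage, were not detected on any of the 4 arrays, and neither were Msx2 and Mef2c. Matrix and mineralization genes of the labelled cell type were thus detected, and these regulators of it were not, which does not show that their transcripts were absent. Sost, which encodes an osteocyte inhibitor of Wnt signals, did not pass the detection filter, being detected on 1 SCI array only. The SCI+FES pool, from cord-injured rats whose muscle was then electrically stimulated, varied over these genes. Its signals were 6.16 and 2.22 for Panx3, 33.7 and 8.90 for Bglap and 335 and 341 for Alpl, below both other pools. Ibsp, at 140 and 258, lay near the sham signals, and Spp1 had a mean log2 level of 14.20 against 14.17 in SCI and 14.19 in sham cultures. Mgp was higher than in either pool, with 4480 and 6062.

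**Figure D2:**
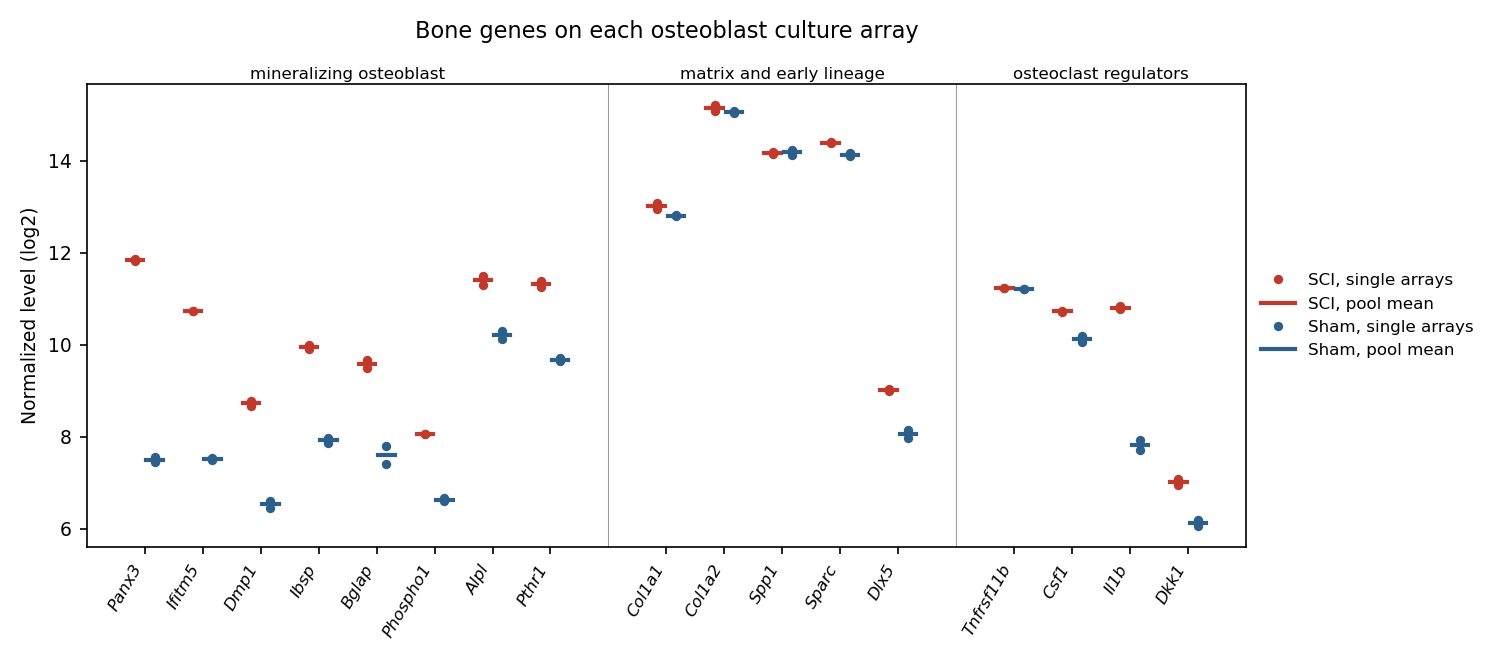
Normalized log2 level of 17 bone genes on each array (points) with the pool mean (lines), SCI in red left of sham in blue. Panx3, Ifitm5, Dmp1, Ibsp and Bglap lie apart between pools, while Spp1 and Tnfrsf11b overlap or nearly touch.

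The promoter of Bglap, a usual marker of the mature osteoblast, is given because it holds the RUNX core marked below. It was chosen by that match and by the size of its difference, so the match was fixed beforehand. The letters are RefSeq's, from 250 bases before to 50 bases after the start site on build GRCr8, 5′ to 3′ on the gene's strand, and capitals mark the RUNX core TGTGGT on either strand.
Bglap (chr2:176137269-176137568, - strand): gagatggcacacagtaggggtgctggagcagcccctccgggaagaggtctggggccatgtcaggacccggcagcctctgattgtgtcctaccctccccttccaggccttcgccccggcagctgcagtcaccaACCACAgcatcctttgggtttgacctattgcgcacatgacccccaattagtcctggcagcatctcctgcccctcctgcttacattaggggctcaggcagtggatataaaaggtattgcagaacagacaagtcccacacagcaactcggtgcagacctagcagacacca
This core was in 16.7% of the 6 promoters available for the osteoblast markers higher in SCI and in 16.9% of all 27457 promoters of the table.

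Of 9 detected genes for RANKL, osteoprotegerin and other osteoclast-forming signals 2 were higher, 0 were lower and 8 were positive. Their median difference was 0.59, and that of the 6 detected on all 4 arrays was 0.69. Tnfrsf11b, the decoy receptor osteoprotegerin, gave 1908 and 2258 in SCI cultures against 2578 and 2722 in sham cultures, which after normalization was a difference of 0.02 ± 0.01. Tnfsf11 (RANKL), the ligand it binds, was not detected in either pool. Csf1, the macrophage growth factor that osteoclast precursors need, differed by 0.59 ± 0.07. Il1b, a cytokine that stimulates resorption, gave 1393 and 1734 in SCI cultures and 179 and 234 in sham cultures, a difference of 2.99 ± 0.11. Its relative Il1a was not detected in sham cultures and was at least 1.13-fold higher in SCI, and its antagonist Il1rn differed by 0.38.

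The median difference was 0.05 for Wnt genes and 0.23 for BMP and TGF-beta genes. Of 17 detected Wnt genes 1 was higher, Tcf7 (a nuclear effector of the pathway, 1.13), and 0 were lower. Tcf7 is also counted among the T and NK cell genes below, and it no longer passed under common-median scaling. Wnt5a, a ligand, differed by -0.14 and Lrp5, a co-receptor, by 0.05. Sfrp2, a secreted antagonist, was not detected in SCI cultures and was at least 1.03-fold lower there. Dkk1, an antagonist of Lrp5 and Lrp6, gave 41.8 and 62.2 in SCI cultures, while its negative signals in sham cultures were not detected, and was at least 1.17-fold higher. Axin2, a common Wnt target, was not detected. Of 27 detected BMP and TGF-beta genes 3 were higher, or 11.1% against 2.02% of all detected genes. Among them were the BMP targets Id1 (1.69) and Id3 (1.07). Id3 no longer passed under common-median scaling or without SCI replicate 1. Chrd, a secreted BMP antagonist, passed as lower but was not detected in SCI cultures, was at least 1.79-fold lower, and no longer passed without SCI replicate 2.

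Of 12 detected hormone and vitamin genes 1 was higher and 2 were lower, with a median of -0.01. Cyp26b1, the enzyme that degrades retinoic acid, gave 349 and 444 in SCI cultures, against 17.3 and 36.3 in sham cultures where it was not detected, and was at least 4.48-fold higher. The lower members were Igfbp6, which binds insulin-like growth factors (-1.18), and Crabp2, a retinoic acid carrier (-1.05). The related carrier Crabp1, which is no member and was picked after its value was seen, was lower as well (-1.21). Crabp2 passed no longer on the authors' series matrix, nor with quantile normalization over the 4 arrays alone. Of 10 detected prostanoid and oxysterol genes 2 were higher and 1 was lower, and 5 were positive and 5 negative. Ch25h, which makes 25-hydroxycholesterol, gave 970 and 1153 in SCI cultures against 136 and 187 in sham cultures (2.68 ± 0.11). Ptgis, the prostacyclin synthase, gave 480 and 573 in SCI cultures and 46.0 and 64.6 in sham cultures (2.44 ± 0.06). Ptgs2, the inducible cyclooxygenase upstream of it, differed by 0.78. Akr1b10, an aldo-keto reductase, was the lower member (-1.86).

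The bulk of the collagen matrix was alike in both pools, and differences sat in accessory proteins. Of 18 detected collagens 0 were higher and 1 was lower: Col14a1, which coats fibrils in tendon and skin, gave 608 and 769 in SCI cultures and 2708 and 2820 in sham cultures, a difference of -1.62 ± 0.03. None of the 20 detected collagen processing genes passed in either direction, the lowest being Lox, the crosslinking oxidase, at -0.94 ± 0.08. Among 34 matricellular and glycoprotein genes 25 were negative, with a median of -0.34. Their 3 higher members were Mamdc2 (2.19), Mgp and Ccn1 (1.06). Their 3 lower members were Egfl6, an integrin-binding secreted protein (-1.91), Fbln5, an elastic fibre protein (-1.22), and Postn, the periosteal protein periostin (-1.13). The 8 detected basement membrane genes, laminins, nidogens and type IV collagen chains among them, ranged from -0.81 to 0.06, with a median of -0.44, and 0 passed the rule. Among 24 metalloproteinases and inhibitors 1 was higher and 4 were lower: Mmp7 (-1.55), the aggrecanase Adamts5 (-1.32), the protease inhibitor Serpine2 (-1.18) and Mmp9 (-1.02).

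Cell division genes were higher in SCI cultures as a group. Of 44 detected mitosis and spindle genes 24 were higher in SCI cultures, 0 were lower and all 44 were positive, with a median of 1.11. Prc1, which bundles spindle microtubules for cytokinesis, gave 1354 and 1962 in SCI cultures and 593 and 633 in sham cultures, a difference of 1.77 ± 0.16. Ccna2 (cyclin A2) gave 765 and 930 in SCI cultures against 315 and 359 in sham cultures (1.60 ± 0.04). Cdc20, an activator of the anaphase-promoting complex, gave 923 and 1034 in SCI cultures against 415 and 429 in sham cultures (1.54 ± 0.05). Cdk1, the kinase that drives entry into mitosis, gave 2652 and 3131 in SCI cultures and 1290 and 1365 in sham cultures (1.48 ± 0.01). All 4 members of the NDC80 complex, which ties kinetochores to microtubules, were higher, between 1.12 and 1.54. Mki67, a widely used marker of cycling cells, was dim and differed by 0.33 ± 0.10.

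DNA replication genes went the same way. Of 38 detected ones 14 were higher, 0 were lower and 36 were positive, with a median of 0.84. Rrm2, the small subunit of ribonucleotide reductase, gave 1618 and 1931 in SCI cultures against 749 and 626 in sham cultures (1.75 ± 0.15). Of the 6 subunits of the MCM helicase, 4 were higher, led by Mcm6 with 1824 and 2050 in SCI cultures and 945 and 818 in sham cultures (1.54 ± 0.14). Pole2, a subunit of the leading-strand polymerase, differed by 1.53. With common-median scaling the counts became 12 mitosis and 4 replication genes, and the medians 0.81 and 0.66, still with 0 lower in either list. Cell cycle inhibitors and p53 targets showed no such pattern: 1 of 17 was higher (Btg2, 1.41), 1 was lower (Gadd45a, -1.36), and Cdkn1a (p21) differed by 0.66. In the SCI+FES pool the signals of Prc1 were 1693 and 2084 and those of Mcm6 were 2317 and 2617.

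Promoters of 3 of these genes are given because members of both lists moved together. They were chosen among members past the size rule whose promoters hold the motifs marked, so a match in them was fixed beforehand. RefSeq letters and window are as above; capitals mark the CHR core TTTGAA and the CCAAT box in Prc1 and Cdc20, and the E2F forms TTCGCGC and TTTGGCGC in Mcm6, each on either strand.
Prc1 (chr1:143659231-143659530, + strand): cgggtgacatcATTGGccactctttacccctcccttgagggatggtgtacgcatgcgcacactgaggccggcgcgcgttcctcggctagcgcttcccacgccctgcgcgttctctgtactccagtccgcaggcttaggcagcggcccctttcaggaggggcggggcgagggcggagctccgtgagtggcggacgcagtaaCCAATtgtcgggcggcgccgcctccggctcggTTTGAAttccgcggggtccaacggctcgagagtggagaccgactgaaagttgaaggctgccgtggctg
Cdc20 (chr5:137255750-137256049, - strand): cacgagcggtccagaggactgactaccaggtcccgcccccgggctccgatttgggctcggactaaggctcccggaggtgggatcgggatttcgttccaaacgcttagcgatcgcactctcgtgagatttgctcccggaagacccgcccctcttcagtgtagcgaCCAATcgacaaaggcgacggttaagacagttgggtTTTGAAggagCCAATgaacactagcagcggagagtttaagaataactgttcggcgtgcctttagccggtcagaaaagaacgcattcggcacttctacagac
Mcm6 (chr13:42404303-42404602, - strand): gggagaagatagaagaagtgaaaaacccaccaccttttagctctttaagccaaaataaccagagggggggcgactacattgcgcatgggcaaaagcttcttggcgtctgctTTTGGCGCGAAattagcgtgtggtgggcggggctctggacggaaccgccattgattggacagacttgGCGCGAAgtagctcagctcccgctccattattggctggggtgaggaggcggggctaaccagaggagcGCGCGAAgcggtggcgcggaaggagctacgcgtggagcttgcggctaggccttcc
The CHR core, known from late cell cycle promoters, was in 83.3% of the 18 available promoters of mitosis genes that were higher, in 11.5% of those of all detected genes and in 18.1% of all promoters. It was also in 73.0% of the 37 available promoters of all detected mitosis genes, whether or not they passed the rule. In Cdc20 it ran from base -51 to base -46 relative to the start site, with CCAAT boxes on both sides, and in Prc1 from -18 to -13. The first E2F form was in 50% of the 12 available promoters of replication genes that were higher, against 3.5% of those of detected genes and 1.58% of all. Its share was 34.4% in the 32 available promoters of all detected replication genes. In Mcm6 it occurred at 3 places, 1 of which overlaps the longer form. Such matches describe letters and are not evidence of binding.

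Genes of the amino acid stress response, the targets of the transcription factor ATF4, were lower. Of 28 detected targets 11 were lower in SCI cultures, 0 were higher and 26 were negative, with a median of -0.70. Of the 23 detected on all 4 arrays 10 were lower, with a median of -0.67. Trib3, a pseudokinase strongly induced by this response, was not detected on either SCI array, with signals of -3.77 and 6.92 there and 377 and 512 in sham cultures, and was at least 3.59-fold lower. Atf5, a transcription factor of the same response, gave 101 and 95.7 in SCI cultures and 1019 and 1100 in sham cultures, a difference of -2.37 ± 0.10. Ddit3 (CHOP), a stress transcription factor, gave 653 and 660 in SCI cultures and 2882 and 2989 in sham cultures (-1.76 ± 0.12). Nupr1, a small chromatin protein of the stress response, gave 3691 and 3746 in SCI cultures against 10642 and 11211 in sham cultures (-1.32 ± 0.11). Atf4 itself differed by -0.86 ± 0.05, short of the rule.

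The metabolic arm of this response was lower too. Phgdh, the first enzyme of serine synthesis, gave 176 and 185 in SCI cultures against 1152 and 1010 in sham cultures (-1.84 ± 0.15), and Psph, the last enzyme of that route, differed by -1.37 ± 0.03. Asns, which makes asparagine, gave 43.9 and 66.4 in SCI cultures against 419 and 403 in sham cultures (-1.54 ± 0.10). Pck2, the mitochondrial carboxykinase, gave 230 and 258 in SCI cultures and 1144 and 1145 in sham cultures (-1.58 ± 0.06). Slc7a5, a transporter of large neutral amino acids, differed by -1.43 in osteoblast cultures and by -1.84 in osteoclast cultures. Of 17 aminoacyl-tRNA synthetases, which charge tRNA with amino acids, 15 were negative, but only Eprs1 passed the rule (-1.51). Aars1, the alanine enzyme, differed by -0.85. Chaperones of the endoplasmic reticulum, which mark the unfolded protein branch of stress, did not follow: 0 of 19 passed in either direction, their median was 0.11, and Hspa5 (BiP) gave 11299 and 12399 in SCI cultures and 12688 and 13042 in sham cultures (0.04 ± 0.03).

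**Figure D3:**
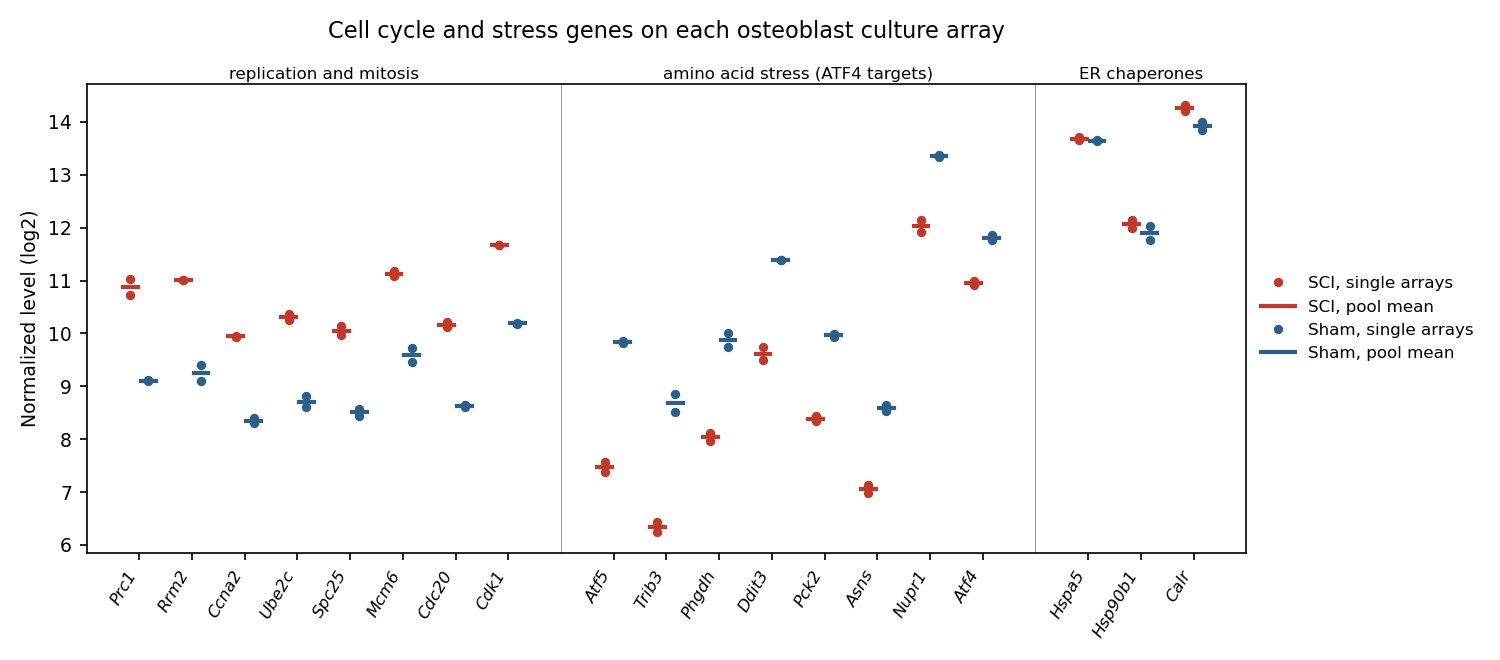
Normalized log2 level of 19 cell cycle and stress genes on each array (points) with the pool mean (lines), SCI in red left of sham in blue. The replication and mitosis genes are higher in SCI, the ATF4 targets are lower, and the chaperones Hspa5, Hsp90b1 and Calr lie close together in both pools.

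The promoters of Trib3 and Aars1 are given because most ATF4 targets and synthetases were negative, 26 of 28 and 15 of 17, although only 1 synthetase passed the rule and Aars1 did not. Capitals mark TGATGNAA, the C/EBP-ATF element through which ATF4 is known to act, on either strand. Both promoters were chosen among those that hold this element, so a match in them was fixed beforehand.
Trib3 (chr3:161275484-161275783, - strand): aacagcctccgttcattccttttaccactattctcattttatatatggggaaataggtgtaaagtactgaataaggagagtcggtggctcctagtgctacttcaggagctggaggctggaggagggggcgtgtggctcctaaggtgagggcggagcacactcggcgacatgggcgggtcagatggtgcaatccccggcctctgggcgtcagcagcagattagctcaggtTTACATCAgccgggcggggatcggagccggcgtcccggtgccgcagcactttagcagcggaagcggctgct
Aars1 (chr19:55908232-55908531, + strand): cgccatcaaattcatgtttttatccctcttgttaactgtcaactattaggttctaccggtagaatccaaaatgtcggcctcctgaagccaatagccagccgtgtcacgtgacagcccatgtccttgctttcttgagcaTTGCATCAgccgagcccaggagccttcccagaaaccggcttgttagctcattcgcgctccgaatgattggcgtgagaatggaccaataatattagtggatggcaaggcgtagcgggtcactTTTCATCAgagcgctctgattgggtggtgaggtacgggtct
The element was in 27.3% of the 11 promoters of ATF4 targets that were lower, in 50% of the 14 available promoters of detected synthetases, and in 3.82% of all promoters. Its share was 20.8% in the 24 available promoters of all detected ATF4 targets and 2.0% in those of all detected genes. Aars1 holds 2 copies, at -112 to -105 and at 10 to 17. Trib3 holds 1, at -21 to -14.

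Chemokines and cytokines were more often higher than lower. Of 36 detected members 10 were higher and 3 were lower, with a median of 0.41. Ccl17, a T cell attractant of dendritic cells, gave 510 and 548 in SCI cultures, while its negative sham signals were not detected, and it was at least 5.86-fold higher. Ccl2, which recruits monocytes, gave 5706 and 6307 in SCI cultures against 2244 and 2748 in sham cultures (1.60 ± 0.13). Its close relatives Ccl12 (2.15) and Ccl7 (1.35) were also higher, and these chemokines resemble each other in sequence, so cross-hybridization between their probes was not tested. The lower members were the alarmin Il33 (-1.19), the B cell attractant Cxcl13 (-1.27) and Cxcl6, a neutrophil attractant that was not detected in SCI cultures and was at least 2.20-fold lower. With the probes of a gene averaged, Il33 no longer passed. Of the 28 members detected on all 4 arrays 9 were higher and 2 were lower.

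Interferon-responsive genes split. Of 32 detected members 5 were higher and 3 were lower, with a median of -0.04. The chemokines Cxcl9 (1.58), Cxcl10 (1.79) and Cxcl11 (1.42), which are classic targets of interferon gamma, were all higher, as was Ubd, a ubiquitin-like protein induced by interferon gamma and TNF, at least 3.42-fold. Mx2, an antiviral GTPase, was higher as well (1.55). In contrast Oasl (-1.07), Ifi44 (-1.14) and the GTPase Ifi47 (-1.36) were lower. The members were not divided by the type of interferon that induces them. Regulators of the response stayed inside the rule: Irf1 differed by 0.64 and Irf7 by -0.62. Genes of MHC class II presentation were positive but did not pass, among them Cd74, the invariant chain, at 0.93 and the class II chain RT1-Ba at 0.98. Their regulator Ciita was not detected in sham cultures and was at least 1.48-fold higher.

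Markers of other marrow cells are given here beside these results, and some of them were detected in the SCI pool only. The 25 detected monocyte and macrophage markers had 0 higher and 0 lower members, a median of -0.02, and mean log2 levels of 11.27 and 11.26 on the SCI arrays and 11.24 and 11.25 on the sham arrays. Cd74, also a marker of these cells, had signals of 17017 and 18672 in SCI cultures and 10457 and 10979 in sham cultures. Of 18 detected T and NK cell genes 3 were higher and 0 were lower, with mean levels of 8.08 and 8.11 in SCI cultures and 7.59 and 7.53 in sham cultures. These levels rest in part on 6 members detected on no sham array: the 11 detected on all 4 arrays had 1 higher member, Tcf7, and a median of 0.00. Cd3d and Cd3g, chains of the T cell receptor complex, were at least 2.27-fold and at least 2.38-fold higher in SCI. LOC362350, annotated in the file as a T cell receptor beta chain, gave 564 and 703 in SCI cultures against 91.2 and 81.0 in sham cultures (2.44 ± 0.06). The co-receptors Cd4 (-0.18) and Cd8a (-0.19) did not share this. Of 12 detected mast cell, basophil and eosinophil genes 5 were higher: the proteases Mcpt10 (1.58) and Cpa3 (1.52), the IL-33 receptor Il1rl1 (1.29), the histamine-making enzyme Hdc and the IgE receptor chain Fcer1a. Hdc and Fcer1a were not detected in sham cultures, and were at least 1.99-fold and at least 1.54-fold higher. Of the 8 members detected on all 4 arrays 3 were higher, with a median of 0.56. Their list had mean levels of 8.41 and 8.44 in SCI cultures and 7.79 and 7.79 in sham cultures. The part of these cells in the cytokine and interferon differences was not tested.

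**Figure D4:**
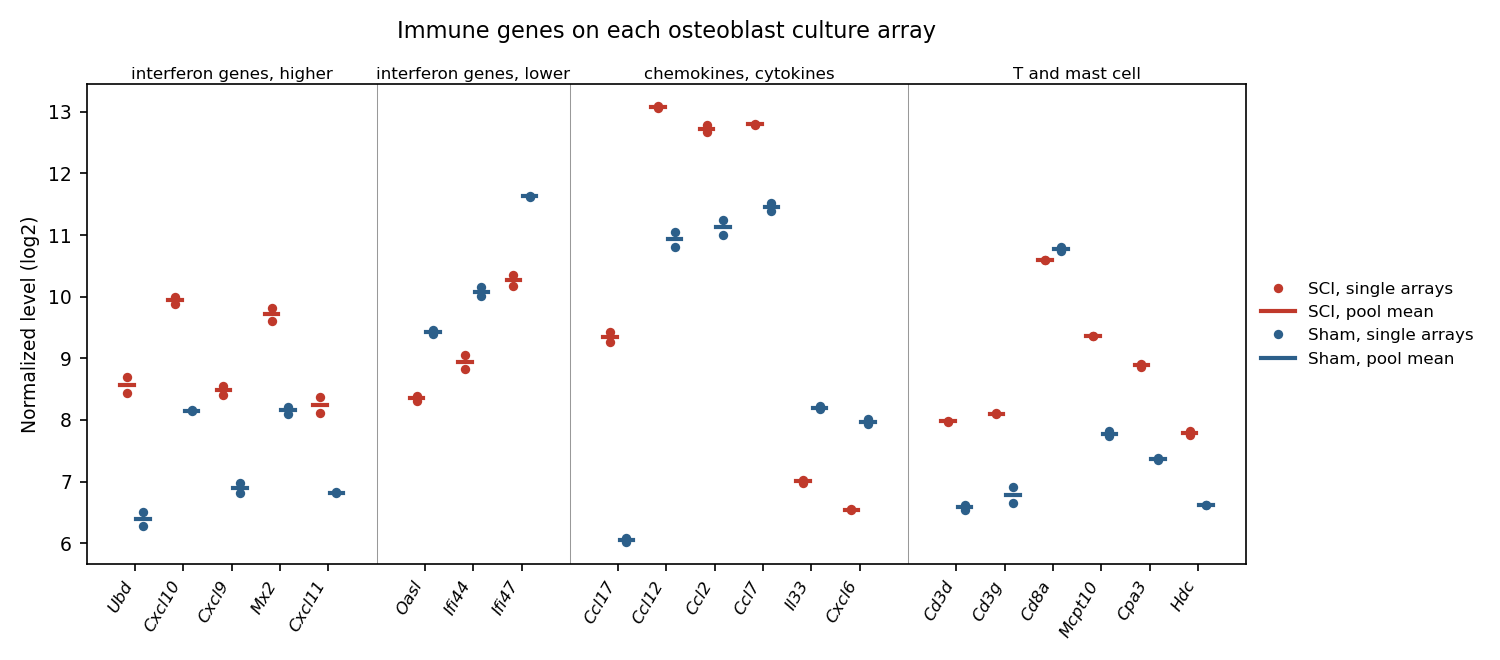
Normalized log2 level of 20 immune genes on each array (points) with the pool mean (lines), SCI in red left of sham in blue. Cxcl9, Cxcl10, Cxcl11, Ubd and Mx2 are higher in SCI, while Oasl, Ifi44 and Ifi47 are lower, and Cd8a lies close in both pools.

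Of 9 detected skeletal and heart muscle genes 4 were lower, but 6 of the 9 were detected on no SCI array and so entered only through the sham pool. Just 2 were detected on all 4 arrays, Tnnt2 (a troponin, -1.08) and Acta1 (skeletal actin, -0.23). Mylpf, the regulatory light chain of fast muscle, was not detected in SCI cultures (0.817 and 3.70) but gave 299 and 347 in sham cultures, and was at least 2.75-fold lower. Myh3, the embryonic myosin, was at least 1.58-fold lower, and the troponin Tnnt3 at least 1.68-fold, neither of them detected in SCI cultures. Of 11 detected smooth muscle genes 1 was higher, Des (desmin, 1.16), 0 were lower, and 7 were positive, with Myh11, smooth muscle myosin, at 0.92. Des no longer passed under common-median scaling. Osteoclast markers were mostly negative, 12 of 13, with a median of -0.30. However, 3 of the 13 were detected on no SCI array and so entered only through the sham pool. Of the 9 detected on all 4 arrays 8 were negative, with a median of -0.51. Mmp9 was the single marker past the rule.

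Immediate early genes, which respond within minutes to stimuli, included 6 higher and 0 lower members of 25, with a median of 0.32. Fos gave 699 and 841 in SCI cultures and 294 and 319 in sham cultures (1.60 ± 0.01). Zfp36, which destabilizes cytokine transcripts, differed by 1.41, Btg2 by 1.41, Junb by 1.22, Ier3 by 1.20 and Ccn1 by 1.06, while Jun (0.40) and Egr1 (0.54) stayed inside the rule. Klf4, another early gene, differed by -0.77. Junb, Ier3 and Ccn1 no longer passed under common-median scaling. The count of higher members ranged over 3 to 6 under the processing alternatives with a 2-fold threshold.

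Few genes of the housekeeping groups passed the rule. Of 36 respiratory chain genes 0 passed in either direction, within -0.37 to 0.35. Cholesterol synthesis had 17 of 19 members positive but only Acat2 past the rule (1.11), with a median of 0.35. Of 61 cytosolic ribosomal protein genes only Rpl30 passed, with signals of 1322 and 1856 in SCI cultures and 5700 and 7401 in sham cultures (-1.79 ± 0.22), while the other 60 lay between -0.45 and 0.60. Of 50 mitochondrial ribosomal genes 2 were higher and 1 was lower. Mrpl17 was at least 7.43-fold higher in SCI. Its signals were 612 and 796 in SCI cultures, and 43.8 and 37.4 in sham cultures. The others past the rule were Mrps34 (1.09) and Mrpl44 (-1.01). Mrpl17 was also higher in osteoclast cultures, where it was not detected in the sham pool, whereas Rpl30 differed by 0.04 there. Whether a sequence variant lies under the probe of Rpl30 or of Mrpl17 was not tested.

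**Figure D5:**
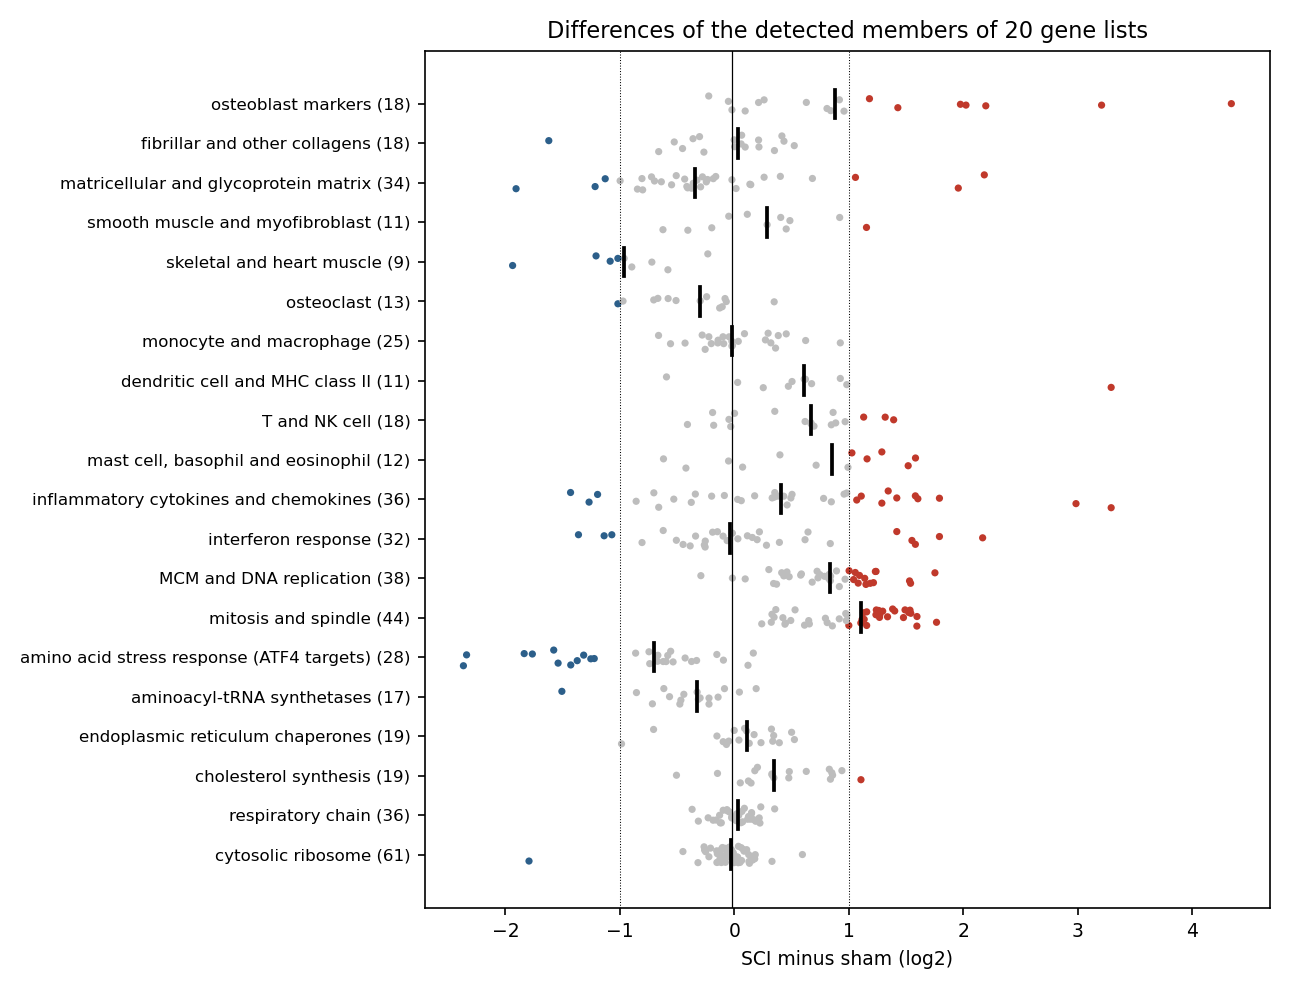
Each point is the SCI minus sham difference (log2) of 1 detected member of 20 gene lists, with the number of detected members in brackets, red where higher and blue where lower by the size rule. Thick bars are list medians: 1.11 for mitosis and spindle, 0.88 for osteoblast markers, -0.70 for ATF4 targets and -0.96 for skeletal and heart muscle, of which 6 members were detected on no SCI array.

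The remaining genes with the widest differences belong to no list above or to several. On the high side, Hopx, a homeodomain cofactor, gave 1475 and 2023 in SCI cultures against 506 and 568 in sham cultures (2.03 ± 0.11). RGD1565970, which the file describes as similar to mast cell protease 8, differed by 2.40, and Lilrb3, an inhibitory leukocyte receptor, by 1.95. With the probes of a gene averaged, Lilrb3 no longer passed. Car3, a carbonic anhydrase, was at least 3.56-fold higher, LOC497667 was at least 2.88-fold higher, and Pcsk6, a proprotein convertase, differed by 1.82. On the low side, Itm2a, a membrane protein of mesenchymal progenitors and T cells, had the largest difference, with 101 and 168 in SCI cultures and 1542 and 1702 in sham cultures (-2.76 ± 0.16). Akr1c14, a steroid-reducing enzyme, gave 297 and 399 in SCI cultures and 2515 and 2529 in sham cultures (-2.35 ± 0.07). Clu (clusterin), a secreted chaperone, gave 55.2 and 55.6 in SCI cultures and 643 and 788 in sham cultures (-2.24 ± 0.11). Aox1 (aldehyde oxidase, -1.93) and Medag (an adipocyte differentiation gene, -1.74) followed. Retnlg, a neutrophil product, differed by -1.72, Ppap2b, a lipid phosphatase, by -1.68, and LOC502843 by -1.64. Cd1d1, a lipid-presenting molecule, differed by -1.57, and Fez1, a kinesin adaptor, was at least 2.28-fold lower.

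The same injury was also compared in osteoclast cultures, where 73 genes were higher, 0.954% of those detected, and 143 were lower, 1.87%. Of the 167 genes higher in osteoblast cultures, 134 were detected in the osteoclast comparison, and 17 of them, or 12.7%, were higher there too while 6 were lower. These 17 make up 23.3% of the genes higher in osteoclast cultures. Of the 116 lower genes 74 were detected there, and 19, or 25.7%, were lower and 0 were higher. These 19 make up 13.3% of the genes lower in osteoclast cultures. Bglap and Ibsp were not detected in either osteoclast pool, so they could not be compared there. No arrays are shared between these comparisons. Whether the same animals gave both cultures is not stated in words.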

How the data were processed

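Per the file headers, the deposited table gives for each of 22523 probes an intensity (average signal) and a detection p-value on each of 12 arrays of 1 chip. The deposited intensity had its background subtracted already, since 26.8% to 27.7% of signals on the 4 arrays lay below 0, by software not given in the sources used here. In the authors' series matrix a linear step multiplies and shifts each array's intensity by constants of its own (r = 1). The matrix's scale and direction follow from that, and the rule behind the slopes is unknown. Its column medians were 14.5 and 14.0 on the SCI osteoblast arrays and 15.3 and 13.8 on the sham ones. All value columns were matched to the 12 samples, with 0 left over.

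Signals were corrected with normexp (offset 50) and quantile-normalized over the 12 arrays with limma 3.58.1 in R 4.3.3, then put on the log2 scale. This offset shrinks differences of dim genes. Later steps used Python 3.11.15 with numpy 2.4.6, pandas 2.3.3 and matplotlib 3.10.9. A gene was called detected where 1 pool or both had a deposited detection p-value of 0.01 or less on each duplicate, and was represented by its brightest probe (883 genes had several). Probe names were matched to RefSeq: 10291 were current, 4174 were updated, 7941 were kept as in the file and 117 probes had none. An "at least" fold sets the brighter pool against, per dim array, the higher of the gene's own level and the lowest level of any detected probe. The error is the standard error over duplicate arrays. The number of arrays and pools limits the precision, and the values also depend on the processing, as given below. The procedure was also run on simulated arrays in which only well-detected probes changed and both pools were equally bright. That run does not cover dim genes or the brightness gap between the SCI and sham arrays.

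Genes were named by rule: the 25 largest differences each way, list members past the size rule and central members of each list, and the bone genes of the study. Members and lists were chosen with earlier results of these data known. Sfrp1 had no matched probe and was not analysed here, and Pth1r was matched by no current name, so the file's Pthr1 is given under that name and counted in no list. Some genes that the naming rule covers are not reported here.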

Additional observations from a re-analysis of the deposited data

Results flagged for a closer look

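6 genes passed the size rule in opposite directions in osteoblast and osteoclast cultures, with every array on the side of its pool. The difference between the culture types was not tested, since each pool is 1 sample. Cxcl10 differed by 1.79 ± 0.06 (array SE) in osteoblast cultures and by -1.61 ± 0.12 in osteoclast cultures, and Cxcl11 by 1.42 ± 0.12 in osteoblast cultures and by -1.93 ± 0.12 in osteoclast cultures. Both are chemokines that attract T cells. Ccl4, another chemokine, differed by 1.07 ± 0.02 in osteoblast cultures and by -2.84 ± 0.05 in osteoclast cultures. Fos (1.6 ± 0.01 in osteoblast and -1.18 ± 0.06 in osteoclast cultures) and Zfp36 (1.41 ± 0.06 in osteoblast and -1.16 ± 0.08 in osteoclast cultures) are immediate early genes. LOC498989 differed by 1.25 ± 0.03 in osteoblast cultures and by -1.50 ± 0.05 in osteoclast cultures.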

How the results depend on the processing

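The 167 higher and 116 lower genes became 227 and 160 with a normexp offset of 16, 306 and 223 with neqc, and 323 and 252 on log2 of the signal plus 16 without normexp. Scaling to a common median gave 95 higher and 213 lower, and 92 of the 167 higher genes and all 116 lower ones were kept. The authors' series matrix gave 227 and 127, with 167 and 98 kept. A 1.5-fold threshold gave 478 and 421. Leaving out 1 array gave 172 to 176 higher and 111 to 128 lower. None of the 283 genes past the size rule changed sign under these alternatives. Only the changes of background correction, of scaling and of probe averaging could have turned a sign. The size rule asks for arrays that do not overlap, and the detection filter and the threshold leave the differences as they are. Of 47 list medians 12 changed sign with the common median, under which all genes sit at -0.22, and 13 on the series matrix. Those over 0.1 in size to begin with were, with the common median, osteocyte genes (-0.081), prostanoid synthesis (-0.12), BMP and TGF-beta (-0.067), endoplasmic reticulum chaperones (-0.020) and mitochondrial ribosome (-0.16). On the series matrix they were proteoglycans (0.063) and NRF2 targets (0.069). Prostanoid synthesis also turned at a detection p of 0.05 (-0.014) and with no detection filter (-0.033), and so did platelet genes (-0.0017 and -0.0048). The cause of these turns was not tested. The medians of osteoblast markers, replication, mitosis and ATF4 targets ranged over 0.63 to 1.20, 0.66 to 1.19, 0.81 to 1.29 and -1.12 to -0.59. Counts of higher members ranged over 5 to 11, 4 to 23 and 12 to 32 in the first 3 of these, those of lower ATF4 targets over 10 to 16, of higher T and NK cell genes over 1 to 11 and of lower skeletal and heart muscle genes over 1 to 8. In all, 145 of the 283 genes lost their call under 1 or more alternatives and 23 under 3 or more, these 23 all within 1.11 of 0 on the log2 scale. Genes under the detection limit have only a bound. No paired analysis was possible because the replicate numbers name technical arrays of 1 pool and the results come from no test.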

Other observations

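Imprinted genes, expressed from 1 parental copy and often linked to fetal growth, included several of the lower genes. The list was put together after the values were seen, so it is a description only. Of 20 listed genes 7 were detected, 6 of these were negative and 4 were lower by the size rule. H19, a long noncoding RNA next to Igf2, was not detected in SCI cultures (28.4 and 23.6) and gave 289 and 320 in sham cultures, at least 2.61-fold lower. With the probes of a gene averaged, H19 no longer passed. Its neighbour Igf2, a growth factor, gave 121 and 135 in SCI cultures and 440 and 552 in sham cultures (-1.12 ± 0.11). Plagl1, a zinc finger regulator of growth, differed by -1.14 and Apeg3 by -1.21, while Igf2r, the receptor that clears Igf2, differed by -0.47, and Phlda2, not detected in sham cultures, was at least 1.12-fold higher.

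Tendon genes were also listed after the values were seen, so their count depends on that choice and is a description only. Of 15 listed genes 11 were on the array and 7 were detected. Of these, 6 were negative and 5 were lower by the size rule. Tnmd (tenomodulin), a membrane protein of tendon cells, gave 266 and 335 in SCI cultures against 1284 and 1525 in sham cultures (-1.64 ± 0.09). Col14a1 (-1.62), Prelp (a matrix proteoglycan, -1.21) and Cilp (a cartilage and tendon matrix protein, -1.16) went the same way. So did Itm2a (-2.76), named above as a protein of mesenchymal progenitors and T cells. Fmod (fibromodulin) differed by 0.98 in the opposite direction.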
